A study of Mus musculus with 6 samples.

Results

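The interferon beta gene Ifnb1, the chains of the type I and type II interferon receptors (Ifnar1, Ifnar2, Ifngr1 and Ifngr2), the adaptors Mavs and Traf3 and the kinases Tbk1 and Ikbke were followed in microglia kept in culture; microglia are the brain's own macrophages. These 9 genes were taken by name from the 48005 gene entries of the count table. Microglia of CD1 mice had received extracellular vesicles (EVs), small membrane particles shed by cells, here spun down from primary neural stem cells of the subventricular zone of CD1 mice (3 EV-treated samples), or the control treatment (3 control samples). The labels give no allele, age, dose or time and do not say what the control treatment contained. Whether replicates were separate cultures or animals is not stated either, so a p-value here reflects the spread of 6 samples that may be technical repeats. Libraries are named by group and the letter of their titles.

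Cells that meet foreign nucleic acid make interferon beta through a short relay. RNA sensors act on MAVS at the mitochondrial surface, MAVS recruits TRAF3, and the related kinases TBK1 and IKK epsilon (encoded by Ikbke) phosphorylate the transcription factors IRF3 and IRF7, which bind the Ifnb1 enhancer together with NF-kB and ATF2/JUN. Secreted interferon beta then binds the IFNAR1 and IFNAR2 chains and, through JAK1, TYK2 and the STAT proteins, turns on interferon-stimulated genes, while interferon gamma acts through IFNGR1 and IFNGR2.

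Total counts over all exon bins were 133112063 to 142805303 in EV-treated and 109744701 to 162544804 in control libraries, more than the number of reads stated for the series. Very short bins were well counted, such as a 1-base bin of Ifngr1 with 226 counts in EV-treated A, beside 251 in the next bin of 20 bases. Reads that span bins thus appear to have been counted in each of them. Read pairs may also have been counted more than once, and counts are not taken as distinct molecules. Correlations of log2 CPM (counts divided by TMM-adjusted library totals, on the usual scale) across genes were 0.985 to 0.993 within groups and 0.870 to 0.878 between groups. Among general markers of microglia and macrophages, Csf1r (log2 fold change 0.06), Itgam (0.03, an entry that joins several genes) and Aif1 (-0.59) were not called, Ptprc (-0.67), Cd68 (-0.56) and Spi1 (-0.62) fell, and Adgre1 (2.60) rose. The homeostatic markers P2ry12 and Cx3cr1 were almost lost from EV-treated libraries (means of 0.0885 CPM in EV-treated against 3.77 CPM in control libraries, and 2.46 CPM in EV-treated against 336.1 CPM in control libraries). The 11 markers of microglia and macrophages analysed here summed to 7199 to 7522 CPM in EV-treated and 6096 to 7072 CPM in control libraries, with 1 rise and 7 falls, which included Tmem119 and Trem2. Markers of other cells moved as well. The 8 astrocyte markers summed to 58.3 to 92.4 CPM in EV-treated and 10.9 to 15.6 CPM in control libraries. Most of this was Slc1a2 in EV-treated and Aldh1l1 in control libraries, with Gjb6 at 0 in all libraries. Slc1a2 and Slc1a3 rose, whereas Aldh1l1 fell (means of 1.72 CPM in EV-treated and 13.4 CPM in control libraries). The 9 oligodendrocyte-lineage markers summed to 48.4 to 57.8 CPM in EV-treated and 243.6 to 467.4 CPM in control libraries, mostly Cspg4 in control libraries. Cspg4, Mbp and Cnp fell, whereas Pdgfra rose (means of 2.96 CPM in EV-treated and 0.270 CPM in control libraries). The 10 markers of neurons and neural stem cells summed to 5.12 to 7.24 CPM in EV-treated and 46.97 to 83.6 CPM in control libraries, mostly Nes in control libraries (means of 2.47 CPM in EV-treated and 68.5 CPM in control libraries), whereas Egfr in the same list rose (3.09 CPM in EV-treated and 0.523 CPM in control libraries). The 8 markers of fibroblasts, endothelium and pericytes summed to 35.9 to 52.4 CPM in EV-treated and 19.2 to 40.9 CPM in control libraries. Among them Dcn, Pdgfrb, Pecam1 and Kdr rose and Col1a1 fell. The 13 markers of plasmacytoid dendritic cells, lymphocytes and neutrophils summed to 954.3 to 1379 CPM in EV-treated and 334.1 to 342.6 CPM in control libraries. The sum was led by Bst2, which is also an interferon target, with Cd8a and S100a9 at 0 in all libraries. Bst2 and S100a8 rose, whereas Cd4, Tcf4 and the joined entry that holds Klrb1c fell. In such bulk samples fewer cells of a type and less RNA per cell cannot be told apart, and the part of these shifts in the results was not tested.

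The main finding on the members was a set of rises with 2 falls in it. Of the 8 members with enough counts to be tested, 6 rose (Ifnar1, Ifnar2, Ifngr2, Traf3, Tbk1 and Ikbke) and 2 fell (Ifngr1 and Mavs) at an adjusted p under 0.05 by edgeR's quasi-likelihood test with p-values adjusted by Benjamini and Hochberg's method over 16605 entries. The background was high, since 66.5% of all entries tested were called, 33.0% as rises and 33.5% as falls, and in 71.3% of them the EV-treated and control libraries did not overlap. A called change was therefore common in this comparison. Ikbke had a log2 fold change that 14.8% of entries exceeded, Tbk1 one that 20.9% exceeded, and Ifngr1 a fall that 15.6% of entries exceeded, whereas 76.4% of entries changed by more than Ifnar1 in one direction or the other. With library totals alone as the scaling, the median log2 fold change of all entries moved to -0.38, against -0.02 with TMM, and 3 members rose (Traf3, Tbk1 and Ikbke) and 2 fell, against backgrounds of 23.5% rising and 69.2% called in either direction. With upper-quartile scaling 4 rose and 2 fell, against backgrounds of 29.6% rising and 67.1% called in either direction.

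**Figure D1:**
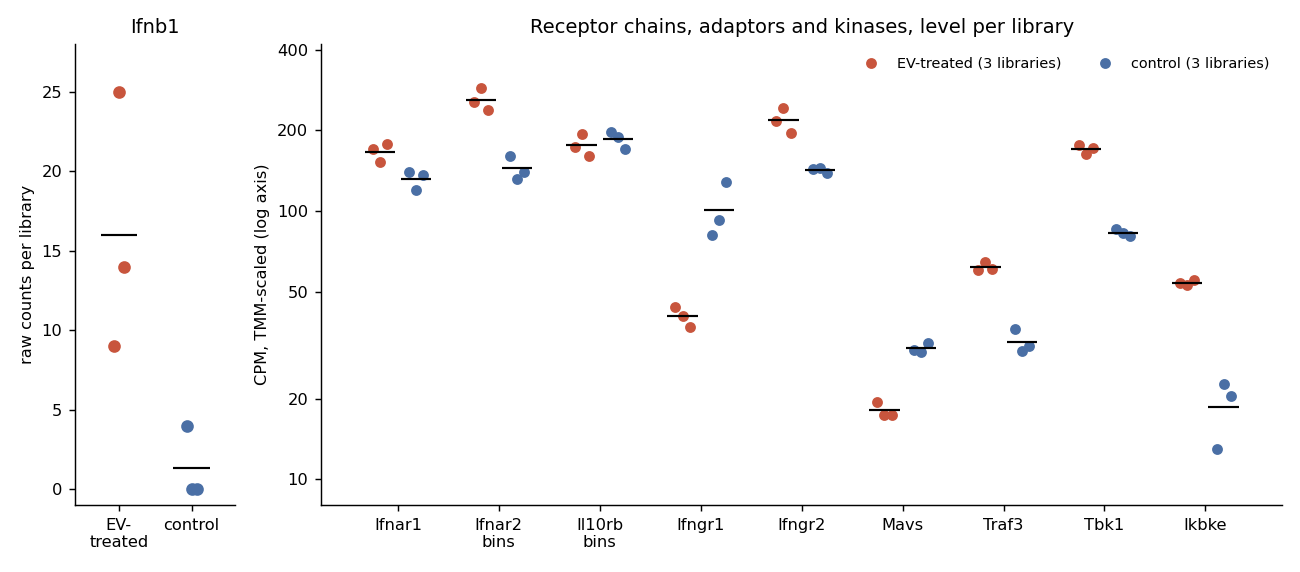
Level of each member in each library. Left, raw counts of Ifnb1 (linear axis); right, TMM-scaled CPM of the other members on a log axis, with the Ifnar2 and Il10rb bins of their joined entry drawn apart; points are libraries (3 EV-treated, left of 3 control) and bars are means. Ifngr1 and Mavs lie lower in EV-treated libraries, the Il10rb bins overlap between the groups, and the remaining genes lie higher in EV-treated libraries.

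Ifnb1 (ENSMUSG00000048806, chr4:88522025-88522774, minus strand, GRCm38) is a gene of 1 exon and was counted in 1 bin of 750 bases. Its promoter is shown because all the relay's factors converge on it. Promoter starts are those of RefSeq, which for Ifnb1, Ikbke and some other members are not the first counted base. The window runs from 250 bases before to 50 bases after the start (chr4:88522745-88523044, minus strand, RefSeq on GRCm38.p6), with capitals marking matches to an NF-kB motif (GGG and TTCC with any 3 bases between them) and an IRF motif (AANNGAAA), both searched on both strands.
Ifnb1: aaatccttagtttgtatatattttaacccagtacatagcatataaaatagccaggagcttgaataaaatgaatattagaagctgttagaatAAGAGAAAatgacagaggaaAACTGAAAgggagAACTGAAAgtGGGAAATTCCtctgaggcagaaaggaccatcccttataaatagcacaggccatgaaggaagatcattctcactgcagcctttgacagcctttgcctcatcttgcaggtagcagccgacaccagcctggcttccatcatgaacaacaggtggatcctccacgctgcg
The NF-kB match GGGAAATTCC lies 116 to 107 bases before the start, and the IRF matches AAGAGAAA, AACTGAAA and AACTGAAA begin 159, 139 and 126 bases before it. Of 27025 mouse promoter windows of this length, 5.52% held the NF-kB motif, 24.2% the IRF motif and 1.13% both. A match describes the letters and is not evidence of binding.

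Ifnb1 transcripts were scarce in both groups. The gene had 9, 25 and 14 counts in EV-treated libraries A, B and C, against 4, 0 and 0 counts in control libraries A, B and C. That is 0.0726, 0.2198 and 0.1093 CPM in EV-treated against 0.0304, 0 and 0 CPM in control libraries. All 3 EV-treated libraries lay above all 3 control libraries, and EV-treated B was the highest. A count of 0 allows up to 3 counts, or 0.0236 CPM in control B and 0.0159 CPM in control C. Summed over libraries, the 48 counts in EV-treated and 4 in control gave a 14.7-fold higher CPM, with an exact 95% interval of 5.37 to 56.03. That interval takes each count as a separate molecule and leaves out the spread between libraries, so it may be too narrow. Ifnb1 did not pass the filter on low counts, so it is not among the 8 members tested. An exact two-sided permutation test of its CPM gave p = 0.1, the smallest value that 3 against 3 libraries allow. When the filter was dropped, edgeR's quasi-likelihood test put the log2 fold change at 3.63 (SE 0.95, adjusted p = 0.000487), in a fit that called 37.7% of 31697 entries. The adjusted p-values of that fit are not on the scale of the main test. Ikbke had 6.3e-25 in it against 5.24e-05 in the main test, and Ifnar1 0.132 against 0.022. For Ifnb1, DESeq2 gave a log2 fold change of 3.79 (adjusted p = 0.00477). Without control A, the only control library with a count, the filter kept Ifnb1 and the log2 fold change was 7.18 (edgeR adjusted p = 0.00284), a value with no control count behind it, which depends on the fit's prior count and is no bound. Even in EV-treated libraries 90.7% of the entries tested had a higher mean level than Ifnb1.

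No other interferon reached the level needed for a test. Of 20 other ligand genes, 13 had no count in any library, among them Ifng, which encodes interferon gamma, the ligand of IFNGR1 and IFNGR2, and 0 counts allows Ifng up to 0.0159 to 0.0264 CPM per library. The most counted was Ifnk, interferon kappa, with 28 counts over the EV-treated and 6 over the control libraries. No single library held more than 18 counts of any of them.

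Both type I receptor chains rose by less than the kinases, and Ifnar2 by more than Ifnar1 once its own exons were separated from those of a neighbour; with library totals alone Ifnar1 did not rise. Ifnar1 (ENSMUSG00000022967, chr16:91485238-91507441, plus strand, 21 bins) encodes the signalling chain that holds TYK2. It had 169.8, 152.9 and 177.3 CPM in EV-treated libraries A, B and C, against 139.8, 120.0 and 136.7 CPM in control libraries. The groups did not overlap, but the gap between the lowest EV-treated and the highest control library was small. The log2 fold change was 0.33 (SE 0.11, a 1.26-fold rise, edgeR adjusted p = 0.022). With library totals alone it was -0.03 (adjusted p = 0.845), with upper-quartile scaling 0.21 (adjusted p = 0.111) and it also missed the threshold without EV-treated A (0.30, adjusted p = 0.099), EV-treated C (0.28, adjusted p = 0.0743) or control B (0.25, adjusted p = 0.115).

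Ifnar2 encodes the high-affinity chain, which holds JAK1. In the deposited table it shares an entry with Il10rb, the common receptor chain for interleukin 10 and interferon lambda, and with the readthrough model Gm21970 (ENSMUSG00000022969, ENSMUSG00000022971 and ENSMUSG00000093701, chr16:91372783-91425834, plus strand, 34 bins), so its sum is uncertain. The joined entry had 428.1, 482.2 and 398.5 CPM in EV-treated libraries A, B and C, against 357.6, 321.2 and 310.2 CPM in control libraries, which edgeR fitted as 0.40 on the log2 scale (SE 0.12, adjusted p = 0.013). With library totals alone that was 0.04 (adjusted p = 0.774), and its most counted bin, in an Il10rb exon, gave -0.06 (adjusted p = 0.654). The call was also lost without control B (0.36, adjusted p = 0.0502) or control C (0.34, adjusted p = 0.0503).

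The bins were then assigned to the gene whose annotated exons they fall in, 17 to Ifnar2 and 17 to Il10rb, a split chosen after the values were seen; exons of Gm21970 coincide with some of each. The Ifnar2 bins had 254.7, 288.3 and 238.5 CPM in EV-treated libraries A, B and C, against 160.8, 132.3 and 140.4 CPM in control libraries. Every EV-treated library lay well above every control library. Their log2 fold change was 0.85 (SE 0.12, a 1.80-fold rise, edgeR adjusted p = 0.000175), and 0.48 (adjusted p = 0.00257) with library totals alone. The Il10rb bins had 173.4, 194.0 and 160.0 CPM in EV-treated libraries against 196.8, 188.9 and 169.8 CPM in control libraries, and the groups overlapped. Their log2 fold change of -0.07 had a 95% interval of -0.33 to 0.18 (edgeR adjusted p = 0.584). With library totals alone it was -0.44 (adjusted p = 0.00366). Within a library, which scaling does not touch, the log2 ratio of Ifnar2 to Il10rb bins per kb was 0.75, 0.77 and 0.77 in EV-treated libraries and -0.10, -0.32 and -0.08 in control libraries (exact permutation p = 0.1, the smallest possible).

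**Figure D2:**
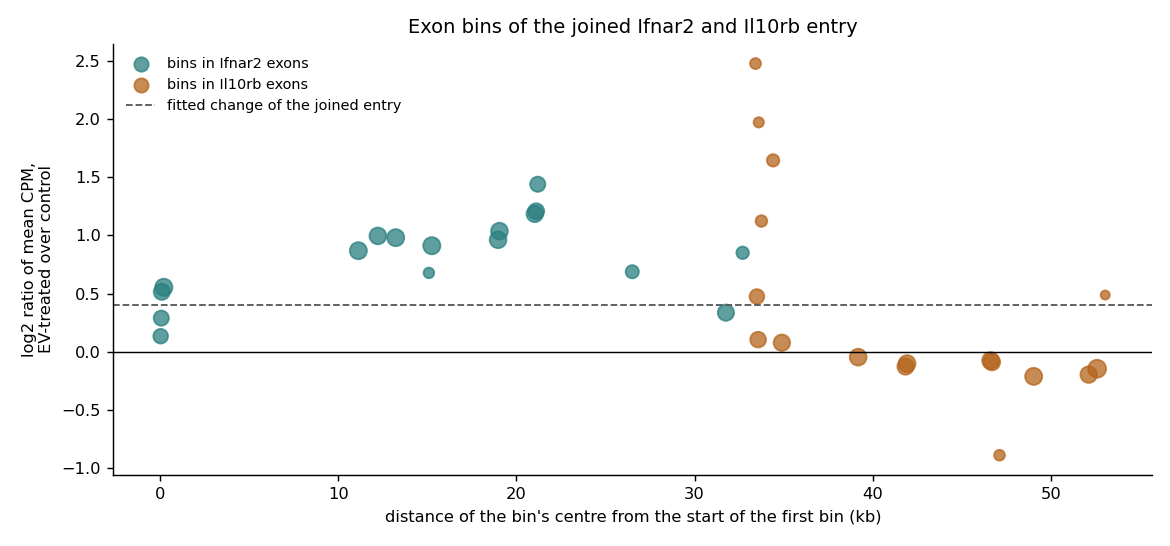
Exon bins of the joined Ifnar2 and Il10rb entry. The x axis gives the distance in kb of each bin's centre from the start of the first bin, the y axis the log2 ratio of mean CPM, EV-treated over control; larger points have more counts, and the dashed line is the fitted change of the whole entry (0.40). All 17 Ifnar2 bins lie above 0, while the well-counted Il10rb bins past the start of that gene lie near or below 0 and a few sparse bins near its start lie between 1.12 and 2.48.

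Across the whole table, usage of a bin relative to its gene was called for 8320 of 198361 bins tested (4.19%) by edgeR's diffSpliceDGE. Called bins of members were all in the joined entry, 15 of its 34. The number was 6 to 14 when 1 library was left out, with 7 without EV-treated A, 9 without control A and 6 without control B, and without EV-treated C 3 bins of other members were called. Treating Ifnar2 and Il10rb as separate genes left 4 called bins in Ifnar2 and 5 in Il10rb. Those of Il10rb all lay at the start of that gene and were used more in EV-treated libraries (log2 usage relative to the gene of 0.55 to 2.57). In Ifnar2 the called bins were the 2 most upstream bins of the first exon (log2 usage relative to the gene of -0.72 and -0.56, adjusted p = 0.00138 and 0.0195), an extension of the seventh exon (0.59, adjusted p = 0.0122) and the last exon (-0.52, adjusted p = 0.0434). The mouse gene makes a long membrane-bound IFNAR2 and short forms that lack the membrane anchor, and the last 2 of these bins belong to different annotated forms. For that reason the coding bases at which the GENCODE vM21 models part are given below, in lower case for the 30 bases of the seventh exon that they share and in capitals for what follows, down to the stop codon in the short forms and for 60 bases in the long form (chr16, plus strand, GRCm38).
Ifnar2-201: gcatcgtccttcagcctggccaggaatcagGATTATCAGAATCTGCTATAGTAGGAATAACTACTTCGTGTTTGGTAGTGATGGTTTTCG
Ifnar2-202: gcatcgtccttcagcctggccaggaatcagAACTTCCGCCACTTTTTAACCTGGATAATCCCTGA
Ifnar2-203: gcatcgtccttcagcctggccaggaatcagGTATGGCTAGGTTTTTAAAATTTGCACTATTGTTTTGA
The long model Ifnar2-201 has 9 exons and 513 codons, Ifnar2-202 skips the eighth exon and ends after 247 codons, and Ifnar2-203 reads on past the seventh exon and ends after 248 codons.

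The extension that only Ifnar2-203 holds (chr16:91393914-91394040) had 908, 965 and 889 counts in EV-treated libraries A, B and C, against 341, 301 and 645 counts in control libraries. Set against the first bin of the seventh exon per base, it had 33.1%, 33.1% and 34.0% of that density in EV-treated libraries and 24.6%, 27.6% and 31.5% in control libraries. The last exon, shared by the other models, had 4.69%, 3.80% and 4.36% of it in EV-treated libraries, against 7.44%, 8.46% and 7.27% in control libraries. The eighth exon, particular to the long model, had 7.67%, 6.53% and 8.05% in EV-treated libraries, against 8.53%, 11.99% and 10.9% in control libraries. In none of the 3 bins did the groups overlap, and each exact permutation test gave p = 0.1, the smallest possible. Relative to the seventh exon, the EV-treated libraries thus had more of the Ifnar2-203 extension and less of the eighth and last exons. Reads that remain unspliced after the seventh exon would also fall in the extension, and short bins gather more reads per base than long ones, so these densities compare groups and not forms. The part of unspliced reads was not tested.

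The receptor chains for interferon gamma moved apart. Ifngr1 (ENSMUSG00000020009, chr10:19591949-19610229, plus strand, 19 bins), which encodes the ligand-binding chain, had 44.1, 40.7 and 37.1 CPM in EV-treated libraries A, B and C, against 81.4, 92.7 and 128.1 CPM in control libraries. Each EV-treated library was below each control library, and the control libraries were the more spread. The log2 fold change was -1.31 (SE 0.17, 2.48-fold lower, edgeR adjusted p = 7.48e-05). All 18 of its bins with at least 50 counts were lower in EV-treated libraries, by log2 ratios of -2.09 to -0.58. Ifngr2 (ENSMUSG00000022965, chr16:91547072-91565169, plus strand, 10 bins), which encodes the second chain that brings JAK2, had 217.1, 242.7 and 195.9 CPM in EV-treated libraries, against 143.1, 144.4 and 138.4 CPM in control libraries. Again the groups did not overlap. Its log2 fold change was 0.62 (SE 0.11, edgeR adjusted p = 0.000734), and 0.25 (adjusted p = 0.0518) with library totals alone, where it missed the threshold.

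Levels of genes were set per kb of counted exon, which makes them only loosely comparable between genes. Short bins held many counts for their length, such as 226 in EV-treated A for a 1-base bin of Ifngr1. Genes with many short bins therefore score higher. A ratio of 2 genes can still be compared between the groups. In CPM per kb, Ifngr1 averaged 14.3 ± 1.23 in EV-treated and 35.4 ± 8.55 in control libraries (SD, n = 3 each), and Ifngr2 averaged 65.97 ± 7.07 in EV-treated and 42.9 ± 0.951 in control libraries. The log2 ratio of Ifngr1 to Ifngr2 within a library was -2.08, -2.36 and -2.18 in EV-treated and -0.59, -0.42 and 0.11 in control libraries A, B and C. The ratio was thus lower in EV-treated than in control libraries (difference of -1.90, exact permutation p = 0.1, the smallest possible). The log2 ratio of Ifnar1 to the Ifnar2 bins was -1.41, -1.74 and -1.25 in EV-treated and -1.02, -0.96 and -0.86 in control libraries (difference of -0.52, exact permutation p = 0.1). Against the joined entry the ratio differed by -0.07 and the groups overlapped (exact permutation p = 0.9).

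**Figure D3:**
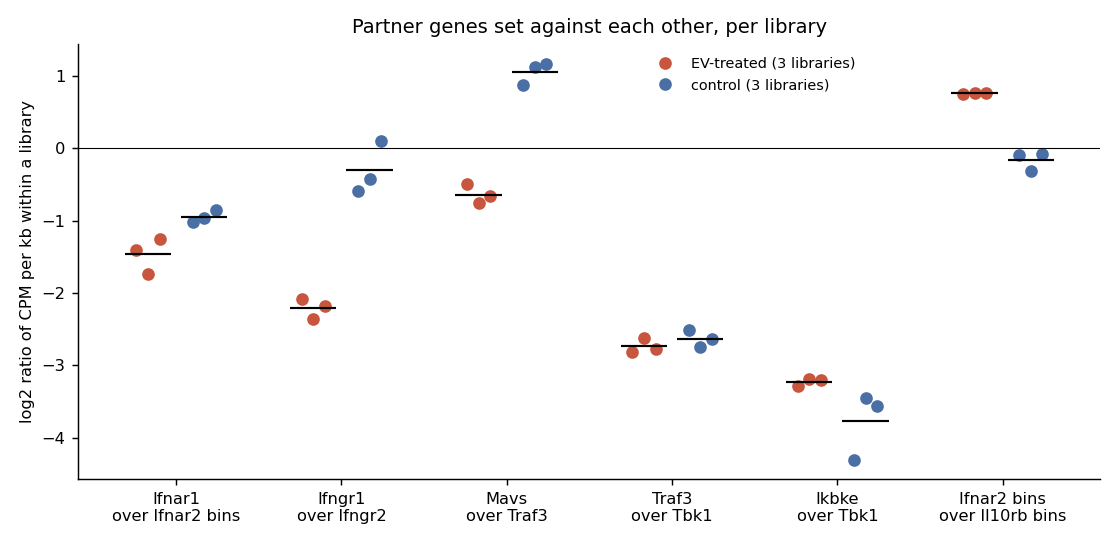
Log2 ratios of CPM per kb between partner genes within each library, which library scaling does not touch. Points are libraries (3 EV-treated, left of 3 control) and bars are means; the Ifngr1 to Ifngr2 and Mavs to Traf3 ratios lie lower in every EV-treated library, and the Traf3 to Tbk1 ratios overlap between the groups.

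Ifnar2, Il10rb, Ifnar1 and Ifngr2 lie in that order on chromosome 16, from base 91372783 to 91565169 on the plus strand. Their log2 fold changes along it were 0.85, -0.07, 0.33 and 0.62, with the first a rise by the separated bins and the second not called.

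The adaptors also moved in opposite directions. Mavs (ENSMUSG00000037523, chr2:131234063-131248025, plus strand, 16 bins), the mitochondrial adaptor of the RNA sensors, had 19.5, 17.4 and 17.4 CPM in EV-treated libraries A, B and C, against 30.5, 29.8 and 32.2 CPM in control libraries. The groups were clear of each other with little spread in either. The log2 fold change was -0.77 (SE 0.10, 1.70-fold lower, edgeR adjusted p = 9.87e-05), and all 13 bins with at least 50 counts were lower. Traf3 (ENSMUSG00000021277, chr12:111166370-111267153, plus strand, 21 bins), the ubiquitin ligase that links MAVS and TRIF to the kinases, had 60.6, 64.4 and 60.7 CPM in EV-treated libraries, against 36.4, 30.1 and 31.5 CPM in control libraries. No library crossed over. Its log2 fold change was 0.92 (SE 0.10, edgeR adjusted p = 3.69e-05), with all 16 bins of at least 50 counts higher. The log2 ratio of Mavs to Traf3 per kb was -0.50, -0.76 and -0.67 in EV-treated and 0.88, 1.12 and 1.17 in control libraries. It was lower in every EV-treated library (difference of -1.70, exact permutation p = 0.1, the smallest possible). Because bin lengths enter the ratio, its sign does not say which gene was the more abundant.

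Both kinases rose, Ikbke by the larger fold. Tbk1 (ENSMUSG00000020115, chr10:121546455-121586794, minus strand, 21 bins), which is made in most cells, had 176.4, 163.8 and 171.3 CPM in EV-treated libraries A, B and C, against 85.8, 83.1 and 80.7 CPM in control libraries. The groups were far apart, and the libraries of each group close together. The log2 fold change was 1.04 (SE 0.10, 2.05-fold, edgeR adjusted p = 8.67e-06). Ikbke (ENSMUSG00000042349, chr1:131254343-131279606, minus strand, 38 bins), the inducible relative of Tbk1, had 53.9, 53.2 and 55.3 CPM in EV-treated libraries, against 12.9, 22.7 and 20.4 CPM in control libraries. The EV-treated libraries lay within a narrow band, and control A was the lowest of the control libraries. The log2 fold change was 1.54 (SE 0.18, 2.90-fold, edgeR adjusted p = 5.24e-05), or 1.16 with library totals alone. All 21 bins of Tbk1 with at least 50 counts (log2 ratios of 0.77 to 1.24) and all 33 such bins of Ikbke (0.64 to 1.94) were higher in EV-treated libraries, and none was called for a change in usage.

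Per kb of counted exon, Tbk1 stood at 56.3 ± 2.09 CPM in EV-treated and 27.4 ± 0.856 CPM in control libraries, and Ikbke at 6.003 ± 0.114 CPM in EV-treated and 2.07 ± 0.565 CPM in control libraries (SD, n = 3 each). The counted length of Ikbke, 9018 bases, includes sparsely covered bins, which lowers its value per kb. The log2 ratio of Ikbke to Tbk1 was -3.28, -3.19 and -3.21 in EV-treated and -4.30, -3.45 and -3.56 in control libraries (difference of 0.54, exact permutation p = 0.1), and the difference was 0.27 without control A. From the most counted bin of each gene it was 0.24 (exact permutation p = 0.4). Traf3 to Tbk1 overlapped between the groups, with a difference of -0.11 (exact permutation p = 0.3).

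Among the promoters of the other members, Ikbke held 1 IRF match, and Traf3 and Ifngr2 held 1 NF-kB match each. The members that rose most, Ikbke, Tbk1 and Traf3, are shown in the same window and with the same marking as Ifnb1 (chr1:131279514-131279813, minus strand; chr10:121586745-121587044, minus strand; chr12:111166120-111166419, plus strand).
Ikbke: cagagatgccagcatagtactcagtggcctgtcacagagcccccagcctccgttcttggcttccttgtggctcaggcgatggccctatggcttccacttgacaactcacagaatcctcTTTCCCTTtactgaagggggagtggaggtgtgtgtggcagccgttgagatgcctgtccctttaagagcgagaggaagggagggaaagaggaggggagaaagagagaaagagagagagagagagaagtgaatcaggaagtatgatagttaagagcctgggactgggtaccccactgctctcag
Tbk1: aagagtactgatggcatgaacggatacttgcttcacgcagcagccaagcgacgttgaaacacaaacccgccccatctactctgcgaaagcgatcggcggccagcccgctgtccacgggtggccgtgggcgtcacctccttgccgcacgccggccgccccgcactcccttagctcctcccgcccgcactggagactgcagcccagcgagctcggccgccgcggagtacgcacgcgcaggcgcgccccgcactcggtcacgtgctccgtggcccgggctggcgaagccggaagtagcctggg
Traf3: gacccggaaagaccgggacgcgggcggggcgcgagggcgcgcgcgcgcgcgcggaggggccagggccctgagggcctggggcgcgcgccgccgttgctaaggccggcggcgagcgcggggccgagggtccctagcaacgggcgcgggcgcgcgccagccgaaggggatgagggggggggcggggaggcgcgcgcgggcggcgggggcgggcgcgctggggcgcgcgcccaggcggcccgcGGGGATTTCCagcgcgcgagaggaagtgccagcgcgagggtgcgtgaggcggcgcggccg
The match in Ikbke lies 132 to 125 bases before the start and that in Traf3 10 to 1 bases before it, and the Tbk1 window holds neither motif. The first 93 bases after this Traf3 start held 0, 0 and 2 counts in EV-treated and 3, 0 and 1 in control libraries. Which start the gene used in these cells was not tested. Ifnar1, Ifnar2, Ifngr1 and Mavs had no match in theirs.

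Ordered by level per kb, the members in EV-treated libraries ran from Ifnb1 (0.179 CPM) through Mavs (5.41), Ikbke (6.003), Traf3 (8.42), Ifngr1 (14.3), Ifnar1 (28.4), Tbk1 (56.3) and Ifngr2 (65.97) to the Ifnar2 bins (78.2). Tbk1 (54.1 to 58.2) lay below Ifngr2 (59.1 to 73.3) in every EV-treated library, whereas the ranges of Ifngr2 and the Ifnar2 bins (71.6 to 86.6) overlapped. In control libraries the order was Ifnb1 (0.0135 CPM), Ikbke (2.07), Traf3 (4.44), Mavs (9.21), Ifnar1 (22.5), Tbk1 (27.4), Ifngr1 (35.4), Ifngr2 (42.9) and the Ifnar2 bins (43.4). The last 3 overlapped there, with Ifngr1 at 28.6 to 44.99, Ifngr2 at 41.8 to 43.6 and the Ifnar2 bins at 39.7 to 48.3 CPM per kb. Ifngr1 and Mavs stood lower in the order of the EV-treated libraries than in that of the control libraries. The sparsely covered bins in the counted length of Ikbke lower its place, so its order against Mavs and Traf3 is uncertain in both groups. Bin structure bears on other places too. A bin of 4584 bases makes up most of the 7350 counted bases of Traf3, and Ifnb1 has only its bin of 750 bases. The whole order is therefore rough.

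**Figure D4:**
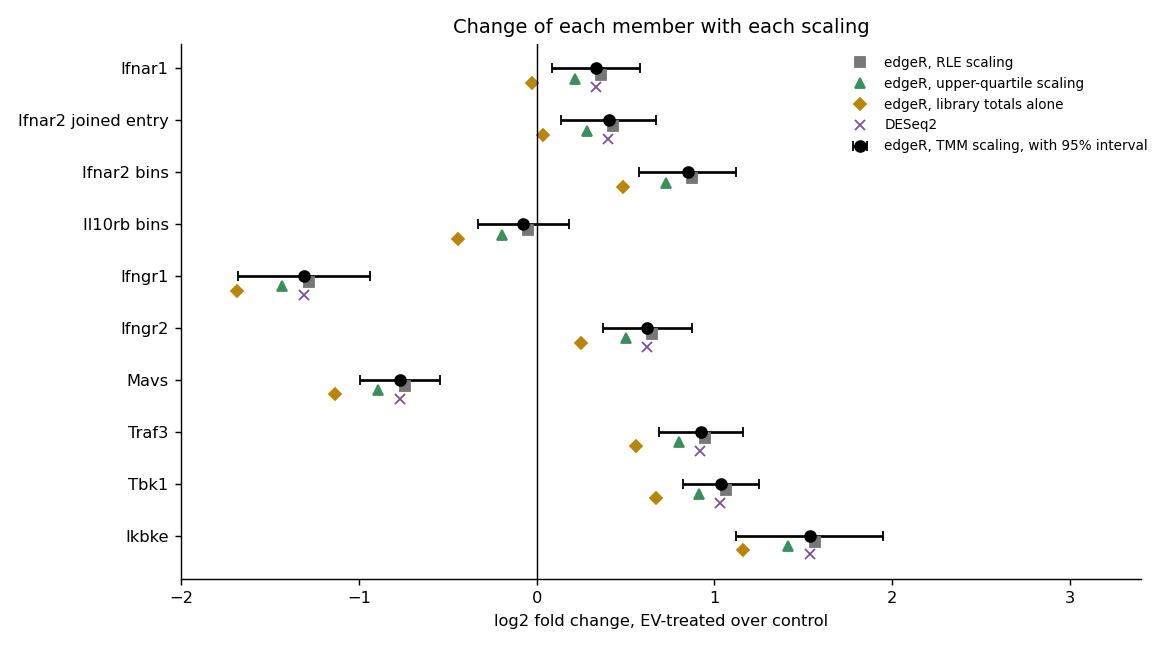
Log2 fold change of each tested member and of the separated Ifnar2 and Il10rb bins, EV-treated over control. Ifnb1 is not drawn. Black points are the edgeR values with TMM scaling and their 95% intervals, and the coloured marks are the values with other scalings and with DESeq2. The separated bins have no DESeq2 mark. Library totals alone shift all members to the left, which puts Ifnar1 at -0.03, and leave Ikbke (1.16), Tbk1 (0.67) and Traf3 (0.56) above 0 and Mavs (-1.14) and Ifngr1 (-1.69) below it.

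The genes around the members were read from lists of known parts of the pathway, whose counts include uncertain entries that join several genes, such as those of Irf9 and Ticam2. Over all entries tested, 33.0% rose and 33.5% fell by edgeR's test, and 23.5% rose and 45.7% fell with library totals alone. These shares are the background for each list. Of 19 nucleic acid sensors and adaptors upstream of TBK1, 9 rose and 7 fell by edgeR's test. With library totals alone 7 rose and 8 fell. The list's median log2 fold change was 0.02, against -0.02 over all entries. The rises were led by Trim25, the ubiquitin ligase that activates RIG-I (2.50, adjusted p = 1.35e-07), Zbp1, a sensor of Z-form nucleic acid (2.80, adjusted p = 3.41e-07), and Ifih1, which encodes the RNA sensor MDA5 (1.89, adjusted p = 4.48e-07). The falls were led by Tmem173, which encodes STING, the adaptor of cytosolic DNA sensing (-2.18, adjusted p = 4.2e-07), Tlr8 (-5.60, adjusted p = 5.54e-07) and the endosomal RNA receptor gene Tlr7 (-1.65, adjusted p = 5.85e-06). Tmem173 had 3.80, 3.70 and 4.54 CPM in EV-treated libraries A, B and C, against 17.5, 18.0 and 18.9 CPM in control libraries, so it fell along with Mavs.

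Scaffolds and partners of TBK1 and IKK epsilon mostly moved with the kinases. Of 15, 13 rose and 1 fell, and the list's median log2 fold change was 0.99, and 9 rose and 2 fell with library totals alone. Traf6, a ubiquitin ligase of Toll-like receptor signalling, rose by 3.53 (SE 0.11, adjusted p = 8.45e-09), and Traf1, a TRAF protein induced by NF-kB, by 8.40 (SE 0.34, adjusted p = 4.07e-08). Traf1 had 299.2, 296.5 and 261.4 CPM in EV-treated libraries A, B and C, against 0.721, 1.34 and 0.515 CPM in control libraries, a gap far wider than that of Traf3. Optn, which encodes the TBK1-binding ubiquitin receptor optineurin, rose by 2.08 (adjusted p = 1.33e-07). The gene that fell was Ddx3x, an RNA helicase that binds IKK epsilon (-0.96, adjusted p = 7.95e-05). By edgeR's test, 8 of 21 brakes on interferon induction rose and 7 fell, with a median of -0.03, shares near the 33.0% rising and 33.5% falling over all entries. With library totals alone 3 rose and 12 fell, against 23.5% rising and 45.7% falling over all entries. Tnfaip3 (A20, 3.12), Tnip1 (1.75) and Adar (0.75) led the rises, and Nlrx1, which encodes a mitochondrial partner of MAVS (-1.74), Nlrc3 (-1.25) and Ptpn1 (-0.86) led the falls.

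Of 12 transcription factors of the Ifnb1 enhancer, 8 rose and 2 fell, and the list's median log2 fold change was 0.51 (4 and 3 with library totals alone). Irf7, itself an interferon target, rose by 2.55 (SE 0.26, edgeR adjusted p = 1.85e-05), with 1309, 1664 and 962.6 CPM in EV-treated libraries A, B and C, against 202.3, 303.7 and 166.0 CPM in control libraries. Nfkb1 (1.31) and Jun (0.99) rose too. The falls were Irf5 (-1.44, adjusted p = 1.84e-06) and Irf3 (-0.38, adjusted p = 0.0109), a direct substrate of TBK1, which had 32.5, 35.4 and 28.8 CPM in EV-treated libraries, against 42.4, 44.2 and 39.5 CPM in control libraries.

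Of the 6 signal transducers of the receptors analysed here, 5 rose and 1 fell, with library totals alone as well, and the median log2 fold change was 0.97. Jak2, the kinase held by IFNGR2, rose by 2.61 (SE 0.11, edgeR adjusted p = 4.24e-08), Stat3 by 1.42 and Stat2 by 1.07. Tyk2, the kinase held by IFNAR1, fell by 0.67 on the log2 scale (adjusted p = 0.000159). Of 13 inhibitors of receptor signalling 7 rose and 5 fell, with a median of 0.64, and 6 rose and 5 fell with library totals alone. Socs3 (7.29, adjusted p = 1.06e-09) and Socs1 (5.001, adjusted p = 6.07e-09), feedback inhibitors of JAK kinases, and the STAT phosphatase gene Ptpn2 (2.32) led the rises, and Ptpn6 (-1.42), Prkd2 (-0.87) and Fbxw7 (-0.57) the falls. Socs1 had 26.97, 27.7 and 32.9 CPM in EV-treated libraries, against 0.843, 0.953 and 0.934 CPM in control libraries. Of the 4 tested entries for other receptor chains of the family, 3 rose and 1 fell, and 2 rose and 1 fell with library totals alone. Ifnlr1, the interferon lambda chain, rose but was sparse, at 0.266, 0.448 and 0.219 CPM in EV-treated libraries and 0.0152, 0.00788 and 0.0159 CPM in control libraries. Il20rb rose by 1.26, and Il10ra fell by 0.66 on the log2 scale. The third rise was the joined entry of Il10rb and Ifnar2 described above, which is also counted among the members. The Il10rb bins alone did not rise (-0.075, edgeR adjusted p = 0.584).

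Interferon-stimulated target genes rose most widely. Of 30, 28 rose and 0 fell by edgeR's test, with a median log2 fold change of 2.13, and 25 rose and 0 fell with library totals alone. The genes with the smallest p were Socs1, the chemokine gene Cxcl10 (7.15, adjusted p = 1.17e-08) and Gbp5, a guanylate-binding protein gene (7.04, adjusted p = 2.56e-08). Cxcl10 had 89.97, 82.8 and 63.8 CPM in EV-treated libraries A, B and C, against 0.380, 0.607 and 0.658 CPM in control libraries. The 2 targets not called, named after their values were seen, were Mx1 (-0.15, adjusted p = 0.717) and Ifi44 (0.67, adjusted p = 0.289). Several of these genes also answer to NF-kB or to interferon gamma, and the list overlaps with the others in Isg15, Irf7, Usp18, Ifih1, Ddx58 and Socs1.

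**Figure D5:**
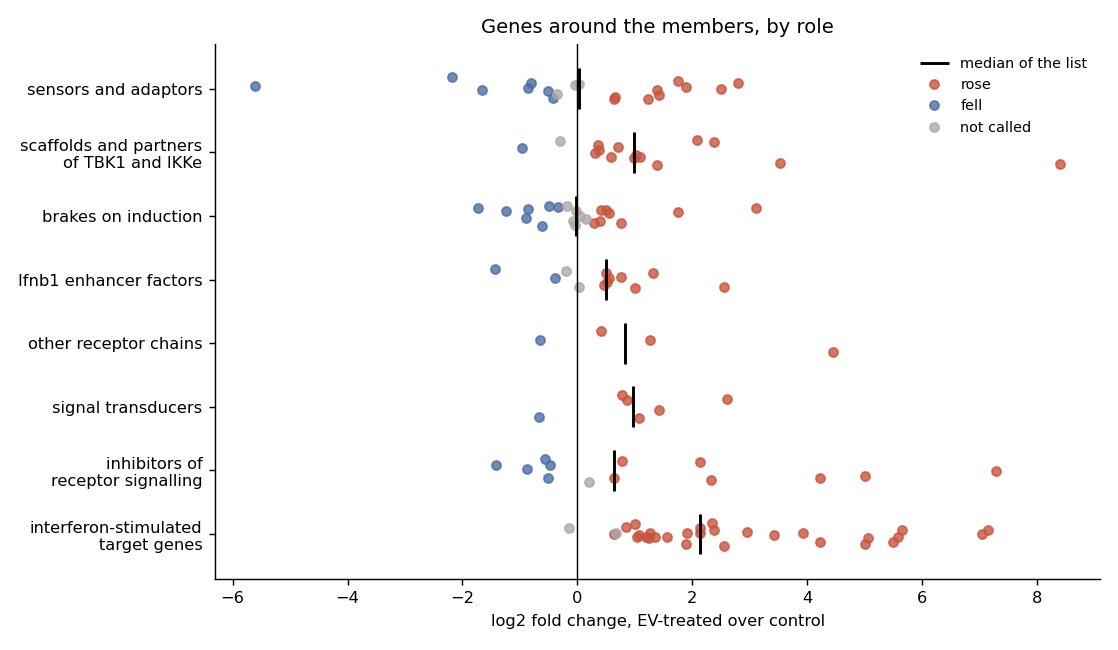
Log2 fold changes, EV-treated over control, of the tested genes around the members, grouped by role. Each point is a gene entry, coloured by whether it rose, fell or was not called, and black bars are list medians. The interferon-stimulated targets (median 2.13) and the scaffolds of the kinases (0.99) lie mostly to the right, while sensors and brakes spread to both sides of 0.

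Genes whose pattern over the 6 libraries was nearest to a member were found by the root mean square difference of centred log2 CPM among 9194 single-gene entries, as a description. For Ikbke the nearest were the interferon target Oas2 (0.09), St3gal6 (0.13) and Naaa (0.17), for Tbk1 Poldip3 (0.02), Rhbdd1 (0.03) and Edc3 (0.04), and for Traf3 Lmbr1l (0.05), Hspa13 (0.06) and Phc1 (0.06). For Mavs they were Alg3, Elp2 and Rab14 (0.04 each), and for Ifngr1 Glo1 (0.10), Nsmaf (0.10) and Bpnt1 (0.11). Ifnar1 was nearest to the autophagy kinase gene Ulk1 (0.01), and Ifngr2 to Bcap31 (0.03). The nearest genes of Ikbke and Ifngr1 lay farther off than those of the other members.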

How the data were processed

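RNA of 6 samples of cultured microglia was extracted with Trizol, selected for poly(A) and prepared with NEBNext Ultra reagents, according to the labels' protocols. Trimmomatic 0.36, STAR, Subread and DESeq2 on GRCm38 are named in the submitters' processing notes. The counting settings, annotation release and strand handling are not given in the sources used, so reads of overlapping genes cannot be told apart. The deposited values are raw counts per exon bin, per the file headers, and were the same in the sample files and the series table.

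Counts were summed per gene entry (48005 entries from 425461 bins, of which 1194 entries join several genes). Symbols matched 49298 of 49644 identifiers, and 42552 of 46811 single-gene entries had the same position in GENCODE vM21, the source of exon positions. Entries were filtered with filterByExpr, scaled by TMM (factors of 0.855 to 0.921 in EV-treated and 1.09 to 1.16 in control libraries) and compared with edgeR 4.0.16 (glmQLFit, glmQLFTest, R 4.3.3, no covariate, two-sided), adjusted over all entries tested. CPM uses TMM library sizes. Bin usage was tested with diffSpliceDGE on all bins. Ratios within a library used CPM per kb of bins. Likeness of patterns used log2 CPM (prior count 2) of entries with a mean log2 CPM of at least 1. Promoters came from RefSeq (GRCm38.p6) and matched all 9 members. Replicates differed by more than counting noise (chi-square over its degrees of freedom 82.4 to 246.4). The common biological coefficient of variation was 0.174.

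The gene and bin tests were run on simulated data, and the numbers of the gene test are given here. For EV-treated against control over 15735 simulated entries, with 50 altered genes per size, recovery was 94% at log2 -2, 72% at -1, 70% at 1 and 100% at 2, and 10 unaltered genes were called. Few genes were altered there, whereas 66.5% of entries were called in the data. The simulation therefore says nothing about the choice of scaling.

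Results were recomputed with RLE, upper-quartile or total-count scaling, without a filter, with a filter of 50 counts in 3 libraries, limma-voom (limma 3.58.1), DESeq2 1.42.0, the replicate block, each library left out and the most counted bin of each gene. Single-gene entries alone and the Ifnar2 and Il10rb bins apart were chosen after seeing the data. The members and lists were chosen with earlier results of these data known. From each pathway list, up to 3 rising and 3 falling called genes with the smallest p are named, besides all members. One signal transducer and one marker are not reported here and were left out of their lists. Other list genes, and the markers named in the description of the samples, were chosen after their values were seen.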

Additional observations from a re-analysis of the deposited data

How the results depend on the processing

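The calls of Ifngr1, Mavs, Traf3, Tbk1, Ikbke and the Ifnar2 bins kept their direction and their side of the threshold under every alternative run for them, with log2 fold changes of -1.69 to -1.12, -1.14 to -0.74, 0.56 to 0.99, 0.67 to 1.23, 1.16 to 1.68 and 0.48 to 0.91. Those of Ifnar1 ranged from -0.03 to 0.40 over 16 alternatives and of the joined Ifnar2 entry from -0.06 to 0.45 over 15, with reversals at -0.028 for Ifnar1 (library totals alone) and -0.063 for the joined entry (most counted bin). With no filter both missed the threshold (0.26, adjusted p = 0.132, and 0.33, adjusted p = 0.0596), and the joined entry also with upper-quartile scaling (0.28, adjusted p = 0.0501). Ifngr2 missed it with library totals alone. Members rising numbered 3 with library totals alone, and 4 to 6 with 1 library left out. The cause of these losses was not tested. Over all entries, rises numbered 5062 to 5439 and falls 5128 to 5544 with 1 library left out. The difference in the log2 ratio of Ifnar1 to the joined entry was -0.18 to 0.07 with 1 library left out, 0.068 without EV-treated B, 0.0013 without control C and 0.37 by the most counted bin. Called bins of members numbered 6 to 17 with 1 library left out and 9 with Ifnar2 and Il10rb apart. Ifnb1, where it was tested, gave 3.01 to 7.18 and was called as a rise each time.

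The letters A, B and C recur in both groups. Deviations from the group means correlated at 0.04, 0.17 and 0.21 between libraries of the same letter, so the letters were not taken to pair the samples. Every library correlated best with its own letter, which is a hint from the data and not from the design. For EV-treated A the margin was slight, at 0.035 with control A against 0.034 with control B. The file headers number the libraries of a letter differently in the groups. With the replicate block, 5758 entries rose and 5851 fell, the same number of members, 6 and 2, passed in each direction, and 19 bins were called. At these depths Ifnb1 and the other interferons are limited by counts of 0 to 25 per library, and with 3 libraries a group no permutation test can fall below 0.1.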
